A study of Rattus norvegicus with 2 samples.

Results

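The 8 genes described here encode 6 subunits of the transcription factor AP-1 (Fos, Fosb, Fosl1, Fosl2, Jun and Jund) and a pair of immediate early response proteins, Ier2 and Ier3. They were chosen by gene symbol from a table of RPKM values (read density per kilobase of gene model, scaled to 1000000 reads) that lists 23282 genes. A row with the symbol was found for 7 of them. Fosb has no row under that symbol and was matched by its Entrez identifier, 100360880, which the table lists as LOC100360880 and RefSeq names Fosb. The values come from 2 RNA sequencing libraries of 1 wild-type group: embryonic stem cells of the rat line DA-EC8/Rrrc (Rat Resource Center stock RRRC#464, Dark Agouti strain), at passage 30, with a karyotype labelled normal. The cells were untreated and kept in 2i medium, which holds inhibitors of the kinases MEK and GSK3. No second condition exists, so nothing below is a test between groups, and the line is a single one. The series design calls the libraries biological replicates, but the labels name no separate cultures, so the spread between them may be technical.

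AP-1 is a dimer of basic leucine zipper proteins. Jun proteins pair with one another or with Fos proteins, while Fos proteins need a Jun partner, and the dimers bind a DNA element called the TRE (the TPA response element) and the related CRE (the cAMP response element). Fos, Jun, Ier2 and Ier3 are immediate early genes: growth factors, stress and ERK signalling switch them on within minutes without new protein synthesis, and their mRNAs are short-lived. In embryonic stem cells ERK signalling favours exit from the naive state, and the MEK inhibitor of 2i medium blocks it.

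The read totals behind the RPKM values were 2991184 in replicate 1 and 3050685 in replicate 2, as found from value steps shared by genes whose model is the whole locus. They were taken as the smallest totals that make these values whole reads. Markers of embryonic stem cells matched the label: all 6 on the list were detected, here meaning a mean level of 1 RPKM or more, from Klf2 at 42.3 ± 0.589 RPKM to Utf1 at 655 ± 14.1 RPKM (SD, n = 2). Of 15 fibroblast and feeder cell markers 5 were detected, against 46.4% of all genes listed. The highest were Col5a1 (12.7 RPKM in replicate 1 against 13.4 RPKM in replicate 2), Col1a1 (3.39 against 6.02 RPKM) and Col3a1 (1.32 against 3.16 RPKM). Another 4 (Col1a2, S100a4, Acta2 and Lum) were listed at 0 in both libraries, as were 8902 of the 23282 genes listed. Summed over the 15, the level came to 21.2 RPKM in replicate 1 against 26.5 RPKM in replicate 2.

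Start regions from RefSeq (GRCr8 assembly) were given for 5 of the 8 genes: Ier2, Jund, Fosb, Fosl1 and Fosl2. Each window runs from 250 bases before the annotated start to 50 bases after it. The 4 windows below are shown because they hold, or lack, the CRE through which cAMP and calcium signals act on immediate early genes. Capitals mark the 8-base CRE (TGACGTCA) and its 5-base core (TGACG, or CGTCA on the other strand); all else is in lower case, 5′ to 3′ on the gene's strand. Ier2 lies at chr19:40399123-40399422 (plus strand), Jund at chr16:18769722-18770021 (minus strand), Fosl1 at chr1:212183635-212183934 (plus strand) and Fosb at chr1:88089135-88089434 (minus strand), all on GRCr8.
Ier2: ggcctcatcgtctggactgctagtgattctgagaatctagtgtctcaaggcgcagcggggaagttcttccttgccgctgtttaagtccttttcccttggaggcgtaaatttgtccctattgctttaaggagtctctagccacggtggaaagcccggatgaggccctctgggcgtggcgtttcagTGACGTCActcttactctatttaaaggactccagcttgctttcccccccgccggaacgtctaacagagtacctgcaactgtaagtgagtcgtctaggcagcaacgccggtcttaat
Jund: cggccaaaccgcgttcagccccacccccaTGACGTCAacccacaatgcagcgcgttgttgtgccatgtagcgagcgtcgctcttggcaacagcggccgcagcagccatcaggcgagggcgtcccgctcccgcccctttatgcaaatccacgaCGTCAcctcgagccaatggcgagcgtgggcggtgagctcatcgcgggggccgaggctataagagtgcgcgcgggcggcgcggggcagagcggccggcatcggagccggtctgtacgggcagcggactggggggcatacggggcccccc
Fosl1: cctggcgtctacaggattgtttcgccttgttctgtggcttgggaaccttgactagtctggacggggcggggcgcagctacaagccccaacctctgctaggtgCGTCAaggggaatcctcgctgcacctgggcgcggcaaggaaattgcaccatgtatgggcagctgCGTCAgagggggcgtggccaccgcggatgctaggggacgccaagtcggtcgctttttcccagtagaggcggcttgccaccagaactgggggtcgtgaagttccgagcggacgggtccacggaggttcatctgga
Fosb: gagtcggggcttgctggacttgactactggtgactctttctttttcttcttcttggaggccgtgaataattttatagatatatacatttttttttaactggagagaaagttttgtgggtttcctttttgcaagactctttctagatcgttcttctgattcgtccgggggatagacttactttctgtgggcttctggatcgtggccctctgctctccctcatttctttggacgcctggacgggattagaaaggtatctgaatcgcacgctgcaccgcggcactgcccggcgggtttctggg

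The full CRE was present once in the Ier2 window, beginning 66 bases before the start, and once in the Jund window, beginning 221 bases before it. Jund also held a separate core, beginning 98 bases before the start. Fosl1 held 2 of the short cores, 148 and 84 bases before its start, and no full element. The windows of Fosb and Fosl2 held neither. A TRE (TGACTCA, or TGAGTCA on the other strand) or a CArG box, the element bound by serum response factor, was in none of the 5 windows. Over 16256 genes of the table with a window, the full CRE was found in 2.39%, the short core, which the full CRE also contains, in 25.5%, the TRE in 4.01% and the CArG box in 1.40%. Only these windows were searched, on both strands, and a match is a string of letters, not a bound site.

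Ier2 was the most abundant of the 8 genes. It encodes a short-lived nuclear protein that is induced by serum and growth factors. The gene (Entrez gene 494344, rn5 chromosome 19, 36750509 to 36752033, minus strand) gave 37.7 RPKM in replicate 1 against 35.9 RPKM in replicate 2, a mean of 36.8 ± 1.28 RPKM (SD, n = 2). These values correspond to 172 and 167 reads over a gene model of 1525 bp, the whole locus. As these are bulk samples, fewer cells expressing a gene and less of its RNA per cell cannot be told apart, here or below. The libraries were close, and the level exceeded that of 72.3% of all detected genes.

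Ier3, which encodes a regulator of apoptosis and of ERK signalling, was the second highest. It gave 17.4 RPKM in replicate 1 against 12.2 RPKM in replicate 2 (mean 14.8 ± 3.62 RPKM, SD, n = 2; Entrez gene 294235, rn5 chromosome 20, 5535616 to 5536820, minus strand). Both values came out as whole reads, 57 and 41, for a model of 1098 bp within a locus of 1205 bp. Replicate 1 was the higher library, and the 2 values of Ier3 stayed below both values of Ier2.

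Jund carried most of the Jun signal. It encodes JunD, the Jun family member known for steady expression in resting cells. Jund (Entrez gene 24518, rn5 chromosome 16, 20342096 to 20343931, minus strand) gave 10.7 RPKM in replicate 1 against 15.0 RPKM in replicate 2 (mean 12.9 ± 3.01 RPKM, SD, n = 2), from 59 and 84 reads over a model of 1836 bp. Replicate 2 was the higher library here, the opposite of Ier3. The replicate values of Ier3 and Jund overlapped: Ier3 was above Jund in replicate 1 and below it in replicate 2, so their order was not settled.

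Jun, which encodes the mitogen- and stress-responsive c-Jun (Entrez gene 24516, rn5 chromosome 5, 117957730 to 117960823, minus strand), gave 3.46 RPKM in replicate 1 against 4.45 RPKM in replicate 2, a mean of 3.95 ± 0.701 RPKM (SD, n = 2). This rests on 32 and 42 reads over 3094 bp. Both values lay below both values of Jund, which was 3.11-fold above Jun in replicate 1 and 3.37-fold above it in replicate 2. Jund made up 75.7% and 77.1% of the summed RPKM of Jun and Jund.

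Junb, the Jun family gene that is not among the 8, was lower still. It gave 0.375 RPKM in replicate 1 against 1.10 RPKM in replicate 2, on 2 and 6 reads over 1785 bp. The ratio of replicate 2 to replicate 1 was 2.94 with a 95% counting interval from 0.526 to 29.8, so reads this few set no direction.

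Of the Fos family, Fosl1, Fos and Fosb had values above 0, none over 2.10 RPKM, and Fosl2 was listed at 0. Fosl1, which encodes Fra-1, a Fos protein known to accumulate in ERK-active and invasive cells, gave 1.61 RPKM in replicate 1 against 1.91 RPKM in replicate 2 (mean 1.76 ± 0.212 RPKM, SD, n = 2; Entrez gene 25445, rn5 chromosome 1, 227755887 to 227764393, plus strand). No model length up to the locus of 8507 bp gave whole reads in both libraries, so its read number is unknown. Fosl1 lies 36 bp from the next gene in the table, Ccdc85b on the opposite strand, at 13.1 ± 1.23 RPKM. Whether the authors' counting used strand is not given in the sources used here.

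Fos itself, which encodes c-Fos, the classic immediate early transcription factor, gave 2.10 RPKM in replicate 1 against 1.03 RPKM in replicate 2 (Entrez gene 314322, rn5 chromosome 6, 116249742 to 116252608, minus strand). Its mean of 1.57 ± 0.758 RPKM (SD, n = 2) corresponds to 10 and 5 reads for a model of 1589 bp. The values of Fos overlapped those of Fosl1, with Fos above Fosl1 in replicate 1 and below it in replicate 2. The table names Fosb, Fosl1, Jdp2 and Atf3 as paralogs of Fos, and how reads that match several of them were counted is unknown. Of detected genes, 5.34% had a lower mean than Fos and 6.74% a lower mean than Fosl1.

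Fosb, which encodes a Fos protein known for its stable splice form in stimulated neurons, gave 0.206 RPKM in replicate 1 against 0.202 RPKM in replicate 2 (rn5 chromosome 1, 81481174 to 81487900, minus strand). These are 2 reads in each library for the shortest model that gives whole reads, 3251 bp, or 4 in each for a model of 6502 bp. Equal reads always give such close values, so the closeness is no measure of precision. Fosl2, which encodes Fra-2 (Entrez gene 25446, rn5 chromosome 6, 35422541 to 35440258, minus strand), was listed at 0 in both libraries. In a model of 2 kb, 3 reads would be 0.501 RPKM in replicate 1 and 0.492 RPKM in replicate 2. These 3 reads are a rule-of-thumb limit for a count of 0, for counting error only. They are not the exact interval used for the other genes. The model length of Fosl2 is not given, and a listed 0 can be a failed estimate: the ribosomal protein genes Rps6 and Rpl8, which every cell uses, were also listed at 0 in both libraries. The level of Fosl2 is therefore open to doubt, as is that of every other gene named here as listed at 0. Values above 0 can be too low as well: the ribosomal protein genes Rps14 and Rpl9 were at 1.35 and 1.44 RPKM. The low levels of Jun, Junb and the Fos genes are open to the same doubt.

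**Figure D1:**
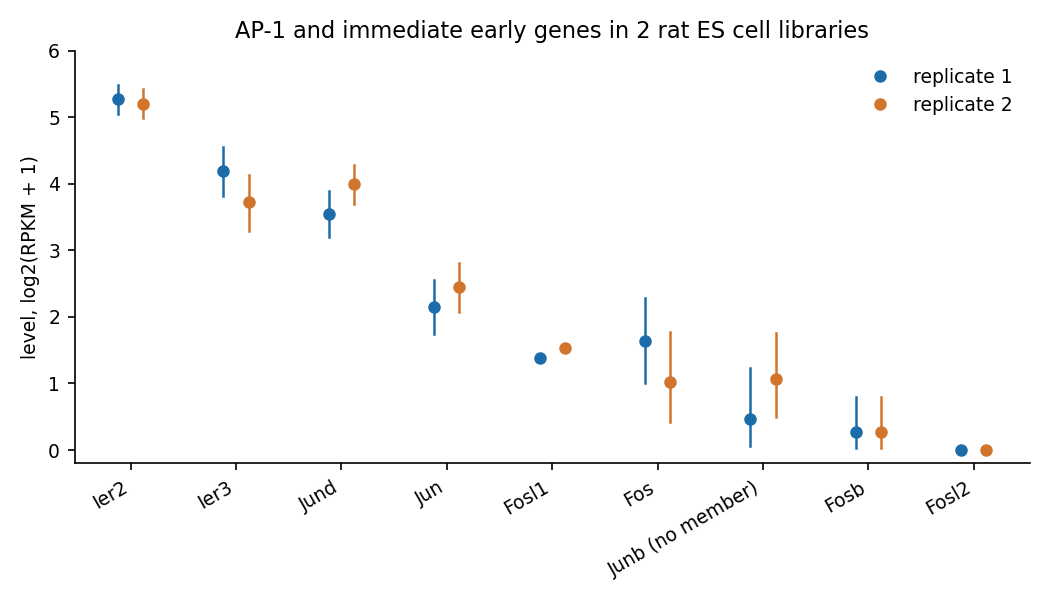
Level of each gene as log2(RPKM + 1) in replicate 1 (blue) and replicate 2 (orange), ordered by mean; lines are exact 95% Poisson counting intervals where whole reads were recovered, which was not so for Fosl1 and Fosl2. Ier2 stands above all others, Ier3 and Jund overlap, and Fosl1, Fos and Fosb lie at or under 2.10 RPKM, with Fosl2 listed at 0.

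Summed over the family, Jun and Jund reached 14.2 RPKM in replicate 1 against 19.4 RPKM in replicate 2. The Fos genes together reached 3.92 RPKM and 3.14 RPKM, a sum to which Fosl2, listed at 0, adds nothing. The listed Jun sum exceeded the listed Fos sum 3.62-fold in replicate 1 and 6.19-fold in replicate 2, a log2 ratio of 2.24 ± 0.55 (SD, n = 2), which is larger than the spread between the libraries. If the 0 of Fosl2 is a failed estimate, the ratio is too high by an unknown amount. Values above 0 in either family may also be too low, which would move the ratio in an unknown direction. Levels of mRNA are not levels of dimers, which were not measured.

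Of the 8 genes 6 were detected, against 46.4% of all genes listed. The median level of the 8 was 2.98 ± 0.281 RPKM (SD, n = 2), beside 0.536 ± 0.0284 RPKM for all genes listed and 16.7 ± 0.151 RPKM for detected genes. By its mean, Ier2 was the only one of the 8 above that last value. In replicate 1 Ier3, at 17.4 RPKM, also lay above the median of detected genes there, 16.8 RPKM. The flanking genes in the table were high or low. Fos lay between Actn1 (143 ± 5.17 RPKM, ending 100270 bp away) and Tmed10 (144 ± 1.65 RPKM). Jund lay between LOC100360908 (0 and 0.259 RPKM) and Lsm4 (95.6 ± 2.36 RPKM), and Ier2 between Cacna1a (0.950 ± 0.0669 RPKM) and Nacc1 (111 ± 1.54 RPKM). Ier3 lay between Flot1 (29.4 ± 2.34 RPKM, 401 bp away) and Ddr1 (14.0 ± 0.677 RPKM), and Jun between Mysm1 (13.3 ± 0.363 RPKM) and LOC100911245 (1.15 ± 0.0161 RPKM). None of the 8 overlapped another row of the table.

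Between the replicates none of the 6 detected genes differed by more than 2-fold on the log2(RPKM + 1) scale, which understates differences of low genes. Over all detected genes 0.721% did, and 3.59% of those between 1 and 3 RPKM, the range of Fos and Fosl1. Fos, Ier3 and Ier2 were higher in replicate 1, with differences, replicate 2 minus replicate 1, of -0.61, -0.47 and -0.07, while Jund, Jun and Fosl1 were higher in replicate 2, by 0.45, 0.29 and 0.16.

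In reads, the ratio of replicate 2 to replicate 1 was 1.40 for Jund, with a 95% counting interval from 0.989 to 1.98. It was 1.29 for Jun (0.793 to 2.11), 0.705 for Ier3 (0.460 to 1.07), 0.952 for Ier2 (0.765 to 1.18) and 0.490 for Fos (0.131 to 1.57). Every one of these intervals includes equality, so at this depth no difference of these 5 genes between the libraries was beyond counting error. The interval was narrowest for Ier2 and widest for Fos.

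**Figure D2:**
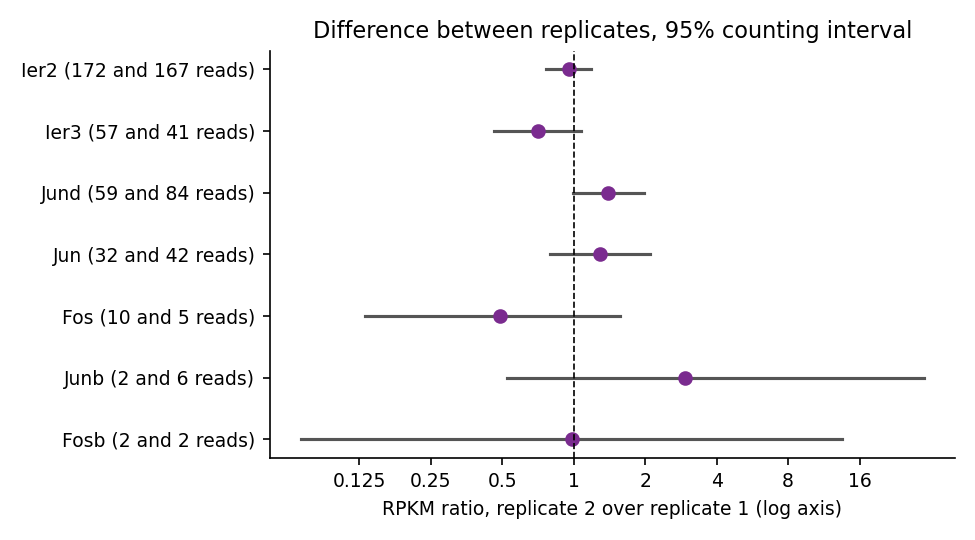
Ratio of RPKM in replicate 2 to that in replicate 1 (log axis) for the genes with recovered reads, with exact 95% counting intervals; the dashed line marks equal levels. All intervals cross 1, from Ier2 with 172 and 167 reads to Fosb with 2 and 2.

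**Figure D3:**
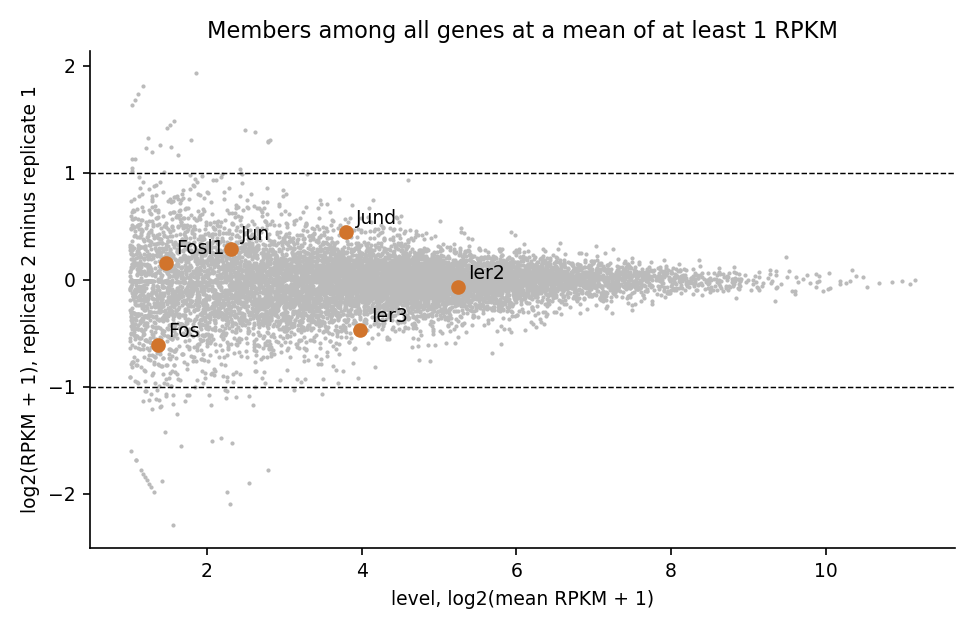
Difference between replicates on the log2(RPKM + 1) scale against mean level for the 10814 detected genes (grey), with the 6 detected genes of the set in orange; dashed lines mark 2-fold. Jund and Ier3 lie towards the upper and lower edges of the cloud at their level, and all 6 lie within 2-fold on this scale.

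Other subunits and partners of AP-1 were uneven, with a median of 3.19 ± 0.0358 RPKM (SD, n = 2). Of 14, 8 were detected, against 46.4% of all genes listed, the share to set beside each list below. Atf4, the effector of the integrated stress response, was far above the rest at 467 ± 0.813 RPKM. Atf2, a CRE-binding partner of c-Jun, was at 32.2 ± 1.40 RPKM, and the small Maf gene Mafg at 30.3 ± 2.14 RPKM. Batf, Batf2 and Batf3, which act mainly in immune cells, were listed at 0 in both libraries. Atf2 thus lay above both Jun and Jund in each library.

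Among 23 other immediate early genes 15 were detected, and the list median was 3.65 ± 1.62 RPKM. The highest were Mcl1, an anti-apoptotic BCL2 family gene (156 ± 1.80 RPKM), Klf10, a TGF-beta-induced repressor (75.7 ± 0.258 RPKM), and Gadd45b, a stress sensor (47.1 ± 4.14 RPKM). Egr1 and Egr3, zinc finger factors induced by ERK, and the neuronal factor Npas4 were listed at 0 in both libraries. As for Fosl2, such a 0 can be a failed estimate. Dusp1, a phosphatase of MAP kinases that was picked with its value known, gave 2.26 RPKM in replicate 1 against 1.36 RPKM in replicate 2. Of the 20 genes above 0, 17 were higher in replicate 1, as were Fos, Ier2 and Ier3, and of the 15 detected, 13. Over the 14380 genes of the table with unequal values, 55.2% were higher in replicate 1, and over detected genes 54.1%. Equal reads give a higher RPKM in replicate 1, whose read total is smaller, as for Fosb. Some of the 17, and some of the 13, had just this ratio and so no direction in reads. The shares over all genes and over detected genes hold such ties as well. The fibroblast and feeder markers went the other way, with 8 of 11 above 0, and 4 of the 5 detected, higher in replicate 2. Jun, Jund and Fosl1 were also higher there, but no counting interval of the 8 genes excluded equality, and Fosl1 and Fosl2 had none. The part of the fibroblast and feeder markers in these values was not tested.

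Factors that act on immediate early promoters were present. Of 9 measured, 8 were detected, and the list median was 13.4 ± 2.22 RPKM. Atf1, which binds the CRE, was at 114 ± 1.95 RPKM, Srf, which binds the CArG box, at 32.9 ± 2.68 RPKM, and its co-activator Mkl1 at 18.5 ± 0.763 RPKM. Elk3, an ETS factor that works with Srf, was lowest at 0.563 ± 0.0690 RPKM. Srf lay below Ier2 and above the other 7 genes of the set in both libraries.

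The kinases upstream were among the higher lists, 14 of 16 being detected, and their median was 25.4 ± 0.650 RPKM. Map2k1, which encodes MEK1, a target of the inhibitor in 2i medium, was at 158 ± 3.59 RPKM. The MEK2 gene Map2k2 was at 81.7 ± 0.0603 RPKM. Mapk7 and Mapk10, which encode ERK5 and the neuronal kinase JNK3, were listed at 0. These are mRNA levels, and kinase activity was not measured.

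Of 9 measured genes that act on the stability or turnover of AP-1 mRNA or protein, in either direction, 8 were detected, and their median was 45.4 ± 6.01 RPKM. Khsrp, which promotes decay of AU-rich mRNAs, was at 147 ± 2.03 RPKM. Cops5, the Jun-binding subunit of the COP9 signalosome, was at 143 ± 9.77 RPKM. Zfp36l2, another factor of AU-rich decay, was listed at 0. Mkl2, Hnrnpd and Fbxw7, also on these lists, were not analysed here.

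Of 15 known AP-1 target genes 7 were detected, a share like the 46.4% of all genes listed, and the median was 0.939 ± 0.157 RPKM, beside 0.536 RPKM for all genes. Hmga1, a chromatin protein gene, stood apart at 521 ± 25.6 RPKM, followed by Timp1, an inhibitor of metalloproteinases, at 64.8 ± 8.37 RPKM and the metallothionein gene Mt1a at 6.79 ± 2.31 RPKM. The metalloproteinase genes Mmp3, Mmp9, Mmp10 and Mmp13, the protease gene Plau and the cytokine gene Il6 were listed at 0 in both libraries.

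**Figure D4:**
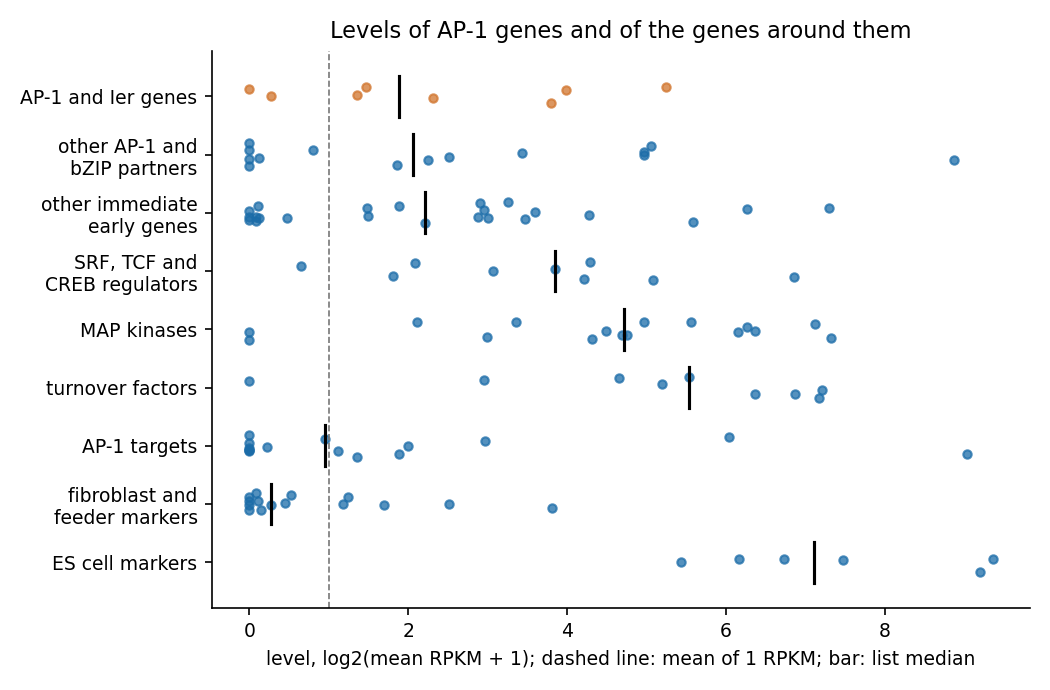
Mean level of each gene, as log2(mean RPKM + 1), in the 8 genes described (orange), 6 lists of related genes and 2 marker lists (blue); bars are list medians and the dashed line is a mean of 1 RPKM. The median of the 8 genes lies near those of the other AP-1 and immediate early lists and below those of the kinases and turnover factors.

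The levels of genes with a CRE in the start window were set beside those of Ier2 and Jund, which had one. Of 388 genes of the table with a full CRE there, 79.9% were detected and the median was 14.8 RPKM. Of the genes without one, 53.7% were, with a median of 1.84 RPKM. Ier2, at 36.8 RPKM, lay above the median of genes with a CRE and Jund, at 12.9 RPKM, just under it. The windows with a CRE also had a higher median GC content, 61.3% against 57.0%, whose part in the difference was not tested. The short core, which the full CRE contains, went with a median of 10.9 RPKM, against 0.745 RPKM without it. Fosl1, with 2 cores, was at 1.76 RPKM and Junb, with 1, at 0.738 RPKM, both far under that median. The Jund window was at 69.7% GC and the Ier2 window at 52.7%. Genes with a TRE in the window, of which none of the 5 genes was one, had a median of 0.217 RPKM, against 2.18 RPKM without.

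**Figure D5:**
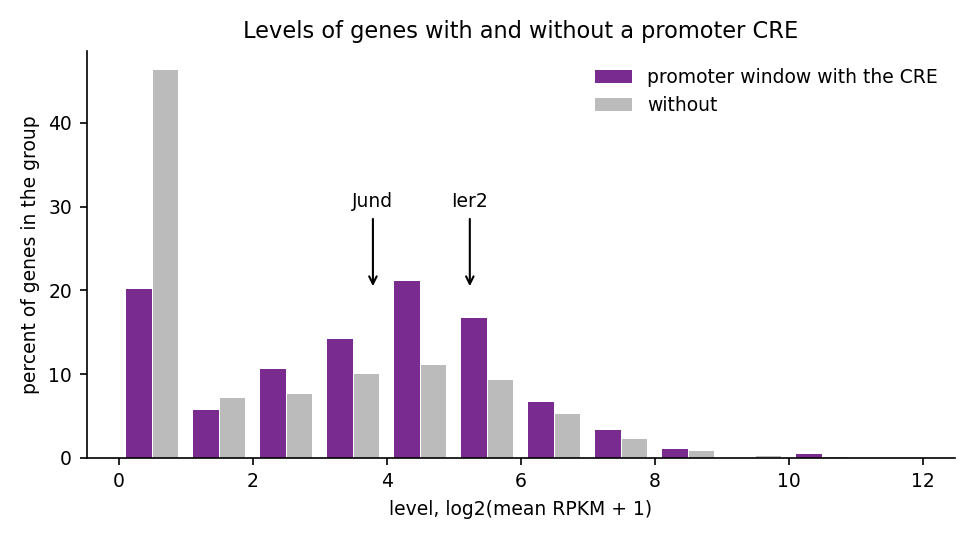
Share of genes (percent of each group) by level, log2(mean RPKM + 1), for the 388 genes whose start window holds the full CRE (purple) and for all other genes with a window (grey); arrows mark Ier2 and Jund. The lowest bin, under 1 RPKM, holds 20.1% of genes with the element and 46.3% of those without.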

How the data were processed

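Total RNA of 2 wild-type libraries was sequenced as paired 50-bp reads, per the series design. The authors deposited RPKM values, 1 column per library. CASAVA 1.8, TopHat 1.4.0 and build rn5 are named, per the submitters' processing notes. The counting tool, with its treatment of multiply mapped reads, is not given in the sources used here. Rows (23716) were joined by Entrez identifier and summed; each of the 8 genes had 1 row. The genes and lists were chosen with earlier results of these data known. Named are the 8 genes, Junb, and the 3 highest and the lowest of each list, some of which are not reported here.

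As RPKM values are no counts, count models were left aside, and 1 group of 2 samples allows no test. Levels are means ± SD, and differences use a pseudocount of 1. Read totals are the smallest that make, within a relative tolerance of 3e-07, nearly the most loci under 6000 bp come out as whole reads (at least 80.0% of the highest count). At these totals 527 of 2700 rows were whole in replicate 1 and 525 of 2688 in replicate 2. A gene's model was the locus if that gave whole reads in both libraries, otherwise the shortest length that did, within a tolerance of 1e-06. Reads serve only for counting intervals (exact Poisson for a level, exact binomial for a ratio, 95%), which treat reads as independent molecules and cover counting error only. The recovery was tested on simulated data, where a recovered read number could fall short by a common factor. The same may hold for genes whose model is not the locus. Of Fos, Fosb and Ier3, which are such genes, only Fosb has a locus long enough for a doubled model, of 6502 bp. Promoter windows are RefSeq sequences of GRCr8, matched by identifier. Tools were matplotlib 3.10.9, scipy 1.17.1, pandas 2.3.3 and numpy 2.4.6 under Python 3.11.15.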

Additional observations from a re-analysis of the deposited data

How the results depend on the processing

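With at most 15 reads over both libraries behind each of Fos, Fosb and Junb, their levels are the least certain, and that of Fosl1 has no known read number. The 6 genes of the set detected at 1 RPKM remained 6 in number at a minimum of 0.3 RPKM and in each library alone. They fell to 4 at a minimum of 3 RPKM. Taking the highest row per gene or leaving out Fosb left the number at 6 but could not have changed it. Each gene had 1 row, and Fosb was not among the 6. The log2 ratio of the Jun to the Fos family, 2.24, ranged from 1.86 to 2.63 with 1 library left out. It was 2.30 with Junb added and 2.33 without Fosb, an alternative chosen after the data were seen. The number of genes past 2-fold between the libraries was 0 also with a pseudocount of 0.1 or with replicate 2 median-centred (the median of detected genes lay at -0.02 on the log2 scale). With a pseudocount of 0.1 the difference of Fos was -0.96. Without a pseudocount Fos, at a ratio of 0.490, was past 2-fold, though its counting interval included equality. Rescaling each library to a sum of 1000000 raised all levels above 0, that of Ier2 to 84.2. No paired analysis was possible because both libraries belong to 1 group.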
